A study of Rattus norvegicus with 6 samples.

Results

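The MAP kinase feedback inhibitors described here are a list of 10 genes, most with products that act back on growth factor signalling. They include the dual-specificity phosphatases Dusp4, Dusp5 and Dusp6, the Sprouty proteins Spry1, Spry2 and Spry4, and the Sprouty-related proteins Spred1 and Spred2. The others are the pleckstrin homology-like protein Phlda1 and the ETS-family transcription factor Etv5, which is used as a readout of this signalling. All 10 were picked by name, through the gene symbol that the platform annotation gives each probe set. Of the 10 genes, 9 had a named probe set, 1 each, among 15037 genes measured. Spry1 had none, so its level was not analysed here.

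Epithelial scrapings of the trachea were taken from male wild-type Sprague Dawley rats, 12 weeks old and weighing 370 ± 39 g, and pooled by 3 rats into each of 3 cell lines. Each line was split at isolation between EpiX, an epithelial culture medium, and BEGM, a bronchial epithelial growth medium, and RNA was taken after 8 days. There were 3 EpiX arrays and 3 BEGM arrays, numbered 1 to 3 in each medium, and the EpiX cultures are set against the BEGM cultures. All cultures came from rats of 1 sex, strain and age, and nothing in the labels separates basal cells from other cells that a scraping brings along.

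In the extracellular signal-regulated kinase (ERK) branch of MAP kinase signalling, a growth factor receptor switches on Ras, and the kinases Raf, MEK and ERK then activate each other in turn. Active ERK raises the transcription of its own inhibitors, so that transcripts of the Dusp, Sprouty and Spred families are widely read as a trace of past ERK activity. The phosphatases remove phosphate from ERK itself, while Sprouty and Spred proteins act further up, at the receptor, Ras and Raf. In airway and skin epithelium this branch is known for its part in proliferation, migration and wound closure.

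All values are the authors' deposited signals on a log2 scale, in which 1 unit is taken as 2-fold. The median over all genes lay at 6.90 to 6.93 on the EpiX arrays and at 6.98 to 7.13 on the BEGM arrays. A set of 1153 negative control probe sets had array medians of 5.24 to 5.56 in EpiX and 5.11 to 5.29 in BEGM. The basal keratin Krt14 was at 16.75 to 17.13 in EpiX and 16.38 to 16.85 in BEGM, and the basal transcription factor Tp63 at 14.62 to 14.80 in EpiX and 12.23 to 12.93 in BEGM. Of 10 measured basal markers 5 rose in EpiX (Krt15, Aqp3, Bcam, Tp63 and Dapl1), 1 fell (Pdpn, with a difference of -2.96 ± 0.21, SE) and 4 did not pass. Of all genes 2.63% were called higher and 3.15% lower by limma. The basal markers had a median difference of 1.08, and their part in the differences below was not tested. Krt5 had no named probe set. Signals below the median of the negative controls on all 6 arrays were found for 4 of 7 leukocyte markers (Ptprc among them), 5 of 7 endothelial markers (Pecam1 among them) and 3 of 4 ciliated cell markers (Foxj1 among them). Above it on all 6 arrays were the leukocyte markers Cd14, Cd68 and Lyz2 and the endothelial marker Esam. By limma 0 leukocyte, endothelial or ciliated markers were called, while 5.78% of all genes were. Of these lists 0, 2 and 2 markers had an unadjusted p under 0.05, against 22.5% of all genes. Of 4 measured secretory markers 1 rose (Cyp2f4, 1.74 ± 0.30, SE), 0 fell and 3 did not pass, with a median difference of 1.91. Among those 3, Scgb3a1 had a difference of 5.72 ± 1.43 (SE) and Scgb1a1 one of -0.85 ± 1.43. The part of secretory cells in the differences below was not tested. BEGM array 1 stood apart from the other BEGM arrays: on the first principal component over all genes (69.7% of the variance) it scored -7.24, against -54.8 and -73.2 for the BEGM arrays 2 and 3, and the EpiX arrays scored 34.2 to 53.9.

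Cells grown in EpiX had lower levels of Dusp6, the cytoplasmic phosphatase that acts on ERK, and of Phlda1 than cells in BEGM. Dusp6 was 5.51-fold and Phlda1 2.79-fold lower in EpiX. The other 7 measured feedback genes did not pass the test. Etv5 and Spry4 had lower means in EpiX by 1.19 and 1.10 log2 units, mostly from BEGM arrays 2 and 3, whereas Dusp5, Spry2 and Dusp4 had nearly equal means in the media. The test was limma's moderated comparison across all 15037 genes, with a Benjamini-Hochberg (BH) adjusted p under 0.05 as the threshold. It called 2 of the 9 feedback genes lower and 0 higher in EpiX, and 3 of 9 had an unadjusted p under 0.05, against 22.5% of all genes. Of all genes, 5.78% were called, 3.15% lower and 2.63% higher (474 and 395 genes). After centring of every array on its own median, 409 were lower and 560 higher, and the median difference of all genes moved to 0.13 from 0.0022, while the same 2 feedback genes were called. The median difference over the 9 feedback genes was -0.49. The labels name 3 lines, each split between the media, but this fit did not pair the arrays. Its p-values rest on the spread between cultures within each medium, and the cultures came from 3 pools of rats. The array number as a block was tried separately.

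**Figure D1:**
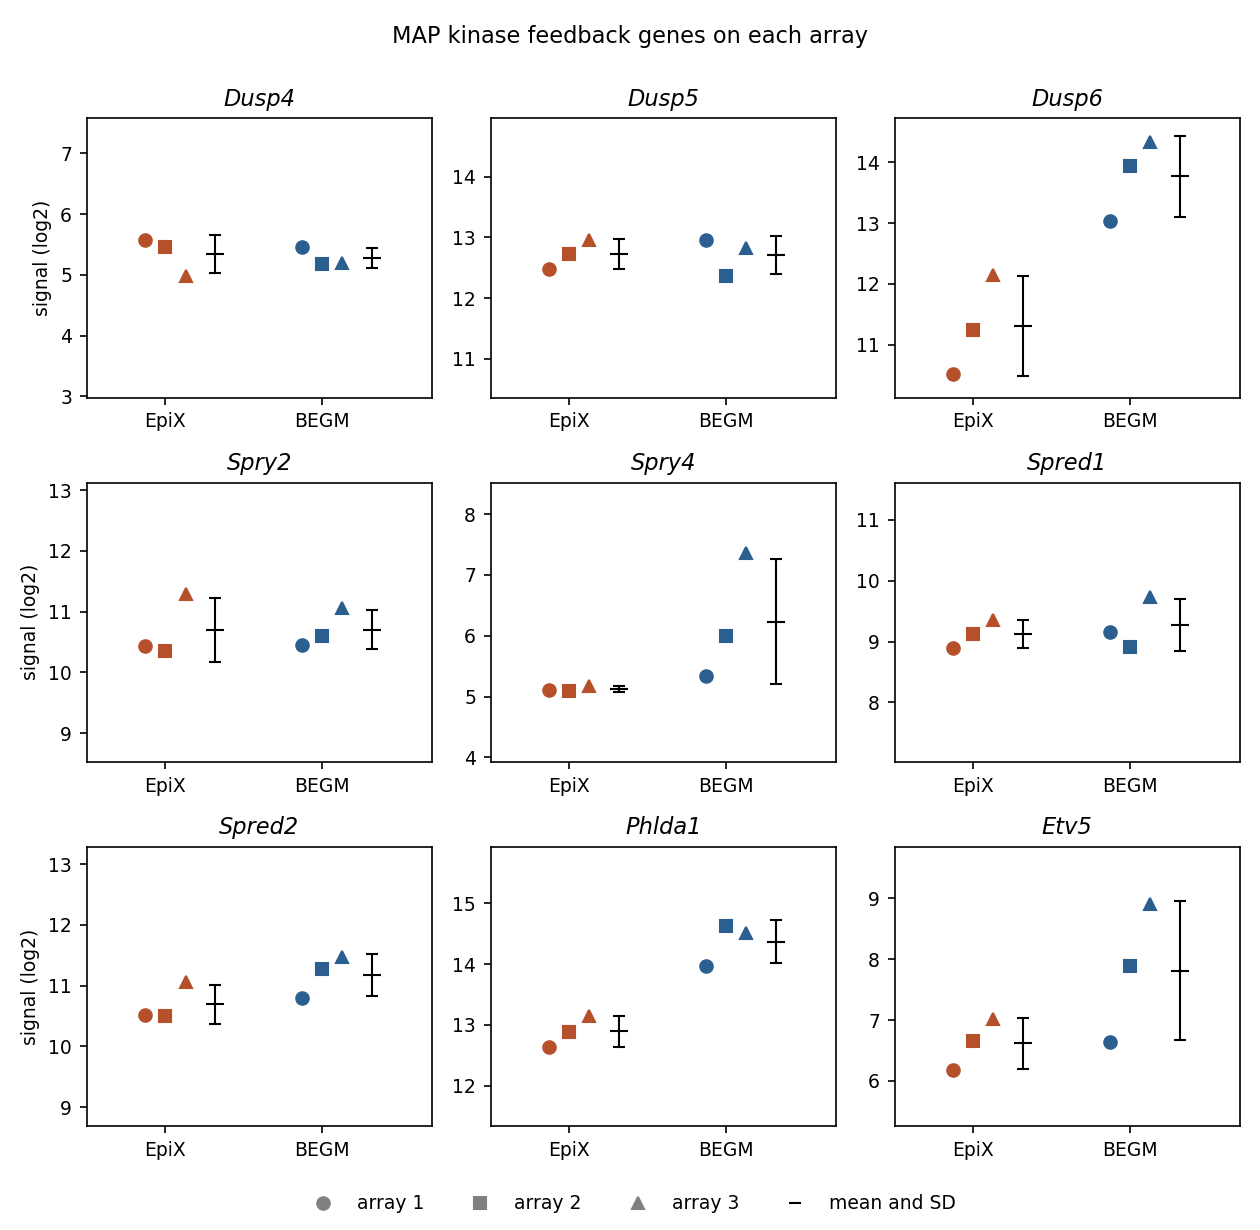
Signal (log2) of the 9 measured feedback genes on each array, EpiX on the left and BEGM on the right, with symbols for the array number and bars for mean and SD (n = 3); each panel spans the same number of log2 units. Dusp6 and Phlda1 separate the media without overlap, Spry4 separates them with BEGM array 1 only just above the EpiX arrays, and the other 6 genes overlap.

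Among the phosphatases, Dusp6 was at 10.52, 11.24 and 12.15 on the EpiX arrays 1, 2 and 3, and at 13.03, 13.94 and 14.34 on the BEGM arrays 1, 2 and 3. The lowest BEGM array was above the highest EpiX array, although each medium spread widely, over 1.63 units in EpiX and 1.31 in BEGM. The mean was 11.31 ± 0.82 (SD) in EpiX and 13.77 ± 0.67 in BEGM (n = 3 each). The difference was -2.46 ± 0.48 (SE), with a 95% interval of -3.59 to -1.33, and an adjusted p of 0.0332 by limma with BH adjustment. This interval corresponds to a level 2.52-fold to 12.1-fold lower in EpiX. The same-numbered arrays differed by -2.51, -2.70 and -2.18, a narrower range than either medium showed by itself. The Dusp6 call ended when EpiX array 1, EpiX array 2, BEGM array 2 or BEGM array 3 was left out (limma adjusted p of 0.0985, 0.141, 0.137 and 0.0803), and the difference then lay between -2.07 and -2.43.

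Dusp5, a nuclear phosphatase specific for ERK, was at 12.48, 12.73 and 12.96 in EpiX and at 12.95, 12.37 and 12.82 in BEGM. The media overlapped fully, and the difference was 0.0089 ± 0.21 (SE), with a 95% interval of -0.49 to 0.51, which reaches a level 1.40-fold lower in EpiX on one side. Dusp4, a nuclear phosphatase that acts on several MAP kinases, was at 5.58, 5.45 and 4.98 in EpiX and at 5.46, 5.17 and 5.19 in BEGM. Its signal exceeded that of only 38.3% to 57.8% of the negative control probe sets in EpiX and 46.7% to 58.5% in BEGM, so its level was not distinct from theirs. Its difference was 0.063 ± 0.20 (SE; adjusted p = 0.895 by limma). The change of Dusp6 was set directly against that of Dusp5 through their log2 ratio on each array, a comparison chosen after the values were seen. The Dusp6 to Dusp5 ratio was -1.96, -1.49 and -0.81 on the EpiX arrays and 0.075, 1.57 and 1.51 on the BEGM arrays. The difference of the ratio between the media was -2.47, with an exact permutation p of 0.1 (2-sided), the smallest that 3 arrays against 3 allow.

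Neither measured Sprouty gene passed the test. Spry2, which blocks Ras activation downstream of fibroblast growth factor receptors, was at 10.44, 10.35 and 11.29 in EpiX and at 10.45, 10.60 and 11.06 in BEGM. Its difference was -0.0064 ± 0.29 (SE), with a 95% interval of -0.70 to 0.69, and array 3 was the highest in both media. Spry4, a Sprouty protein that also restrains receptor signalling to Ras and Raf, was at 5.11, 5.09 and 5.18 in EpiX and at 5.34, 5.99 and 7.35 in BEGM. The EpiX arrays were nearly identical and lay below the median of the negative controls, whereas the BEGM arrays spanned 2.01 units. BEGM arrays 1, 2 and 3 exceeded 55.4%, 67.8% and 83.4% of the negative controls. The Spry4 difference of -1.10 ± 0.47 (SE) had a limma adjusted p of 0.222. The 2.15-fold lower mean in EpiX thus rests on EpiX signals that were no higher than those of most negative controls. Without BEGM array 1 the difference was -1.55 and was called (adjusted p = 0.038 by limma). The Spry4 to Spry2 ratio, also chosen after the values were seen, had a difference of -1.10 between the media. In EpiX this ratio contains the Spry4 signals that lay below the control median. Its exact permutation p was 0.1 (2-sided, also 0.1 after BH adjustment over the 2 ratios tested). For both ratios every EpiX array lay below every BEGM array. With 3 arrays against 3 this test cannot give a p below 0.1. It therefore does not decide whether the genes of either pair changed unequally.

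The Spred proteins hold Ras inactive at the membrane through neurofibromin. Spred2 was at 10.52, 10.50 and 11.06 in EpiX and at 10.80, 11.28 and 11.46 in BEGM, lower in EpiX in all 3 same-numbered pairs but with overlapping media. The difference was -0.49 ± 0.24 (SE; adjusted p = 0.288 by limma), with a 95% interval of -1.05 to 0.075. Spred1 was at 8.89, 9.13 and 9.36 in EpiX and at 9.16, 8.91 and 9.74 in BEGM. Its difference of -0.14 ± 0.24 (SE; adjusted p = 0.788 by limma) was smaller than the spread within each medium.

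Phlda1, a pleckstrin homology-like domain protein whose transcript follows ERK activity, was at 12.64, 12.89 and 13.16 in EpiX and at 13.98, 14.62 and 14.52 in BEGM. The media did not overlap, and the same-numbered arrays differed by -1.34, -1.74 and -1.37. The mean was 12.89 ± 0.26 (SD) in EpiX and 14.37 ± 0.35 in BEGM (n = 3 each), a difference of -1.48 ± 0.23 (SE; adjusted p = 0.0165 by limma with BH adjustment) with a 95% interval of -2.01 to -0.95. The Phlda1 call ended without EpiX array 1, EpiX array 2 or BEGM array 2 (limma adjusted p of 0.0685, 0.0879 and 0.0758), where the difference was -1.35 to -1.48.

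Etv5, an ETS factor that is transcribed in response to fibroblast growth factor and ERK signalling and is used as a readout of it, was at 6.18, 6.65 and 7.02 in EpiX and at 6.63, 7.89 and 8.91 in BEGM. BEGM array 1 lay within the EpiX range and the other BEGM arrays above it. Etv5 exceeded 69.6% to 77.2% of the negative controls in EpiX, and 78%, 89.1% and 92.6% on the BEGM arrays 1, 2 and 3. The difference was -1.19 ± 0.55 (SE; adjusted p = 0.259 by limma), and without BEGM array 1 it was -1.78 and called (adjusted p = 0.0212 by limma). Etv5 was lower in EpiX in all same-numbered pairs, with differences of -0.45, -1.24 and -1.89. Across the 9 genes, 5 were lower in EpiX in all 3 same-numbered pairs (23% of all genes were), and in 3 of 9 every EpiX array lay below every BEGM array (14.5% of all genes).

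**Figure D2:**
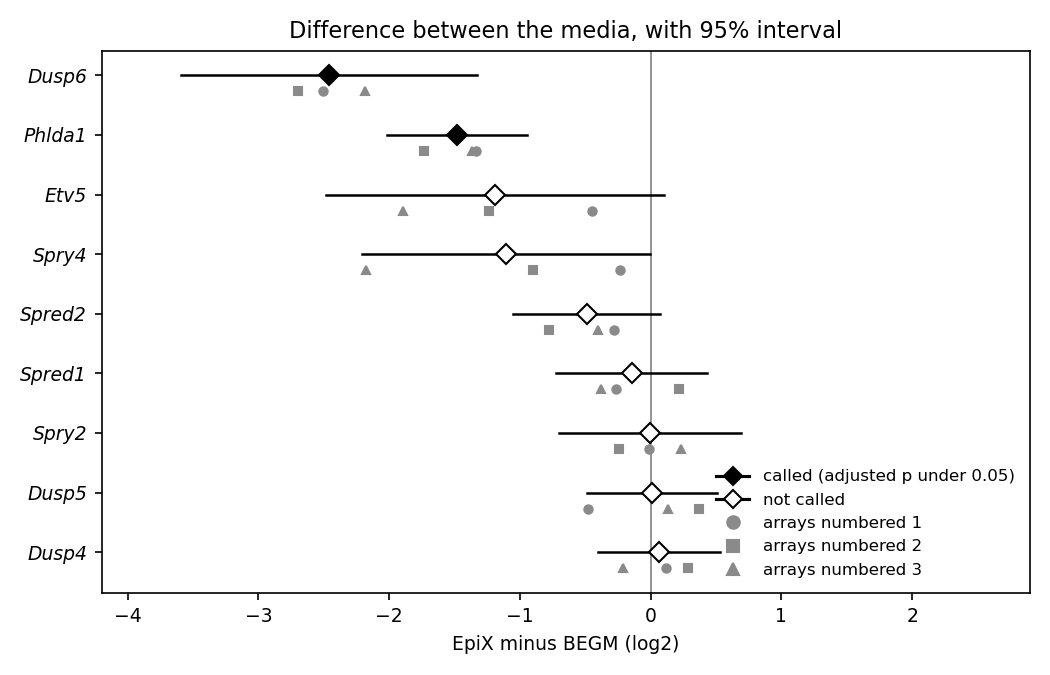
Difference between the media (EpiX minus BEGM, log2) for each feedback gene, as diamonds with 95% intervals from limma; small grey symbols give the differences of same-numbered arrays. Filled diamonds mark Dusp6 (-2.46) and Phlda1 (-1.48), the 2 genes called; the interval of Spry4 ends just below 0, and those of the other 6 genes lie on both sides of 0.

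The promoters of the 2 called genes are shown with that of Dusp5, the ERK phosphatase whose means were nearly equal in the media. Each is the 250 bases before the transcript start in the RefSeq annotation of the rat genome build GRCr8, written 5′ to 3′ on the strand of the gene. They are chr7:35979354-35979603 for Dusp6, chr7:48853440-48853689 for Phlda1 and chr1:262543524-262543773 for Dusp5, all on the plus strand. Capitals mark matches, on either strand, to 4 motifs of factors that ERK and related kinases are known to act on. These motifs are the ETS motif CCGGAA, the AP-1 site TGANTCA, the cyclic AMP response element half-site TGACG and the serum response factor CArG box.
Dusp6: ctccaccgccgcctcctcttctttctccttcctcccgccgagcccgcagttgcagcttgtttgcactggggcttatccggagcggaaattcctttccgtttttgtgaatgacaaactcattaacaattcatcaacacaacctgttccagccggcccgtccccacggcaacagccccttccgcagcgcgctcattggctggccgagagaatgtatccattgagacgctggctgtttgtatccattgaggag
Phlda1: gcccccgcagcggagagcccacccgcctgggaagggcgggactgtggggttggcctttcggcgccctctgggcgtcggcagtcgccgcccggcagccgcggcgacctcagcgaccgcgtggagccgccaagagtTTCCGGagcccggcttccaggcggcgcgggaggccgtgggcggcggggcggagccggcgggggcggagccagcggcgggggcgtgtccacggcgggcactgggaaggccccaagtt
Dusp5: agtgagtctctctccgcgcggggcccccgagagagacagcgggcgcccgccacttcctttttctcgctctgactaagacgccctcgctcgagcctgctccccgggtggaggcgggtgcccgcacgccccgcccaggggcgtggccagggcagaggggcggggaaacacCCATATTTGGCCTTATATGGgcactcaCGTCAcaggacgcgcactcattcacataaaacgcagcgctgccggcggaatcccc
Phlda1 held 1 ETS motif, beginning 116 bases before the start. Dusp5 held a pair of adjacent CArG boxes, beginning 82 and 72 bases before the start, and 1 half-site at 55 bases. The Dusp6 window held no match to these letters, but shorter forms of the motifs, such as GGAA, were not searched for and GGAA occurs in it. No marked matches overlapped. Windows were present for 9 of the 10 genes, Dusp4 being the exception, with a second start for Spry2. ETS motifs were found for 3 of these genes (Phlda1, Spry2 and Spry4) and in 12.6% of all 33469 windows. Half-sites were found for 3 (Dusp5, Spry2 and Spred2; 18.2% of all windows), CArG boxes for 1 (1.5% of all windows) and AP-1 sites for 0 (6.34% of all windows). The windows of the feedback genes had a median GC content of 63.2%, against 51.2% for all windows. A match is a stretch of letters and not a measured binding site.

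Within each medium the feedback genes also varied from array to array. EpiX array 3 had the highest value of the EpiX arrays for 8 of the 9 genes, all but Dusp4, while this was so for 36.1% of all genes. BEGM array 3 was the highest BEGM array for 6 of 9 (31.5% of all genes), and both held for 6 of 9 (14.1% of all genes): Dusp6, Spry2, Spry4, Spred1, Spred2 and Etv5. BEGM array 1 was the lowest BEGM array for 6 of 9 (37% of all genes). The genes share the same 6 arrays, so these counts describe the arrays and are not independent observations.

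Summed over the list, fibroblast markers were higher on the BEGM arrays, most of all on array 3, but single markers differed. Over 11 measured markers the summed log2 signal was 59.5 to 64.5 on the EpiX arrays and 69.2, 76.9 and 99.99 on the BEGM arrays 1, 2 and 3. By limma 0 of the 11 were called and 5 of 11 had an unadjusted p under 0.05 (22.5% of all genes), and in 6 of 11 every EpiX array was below every BEGM array (14.5% of all genes). The collagen chain Col1a1 was at 5.82, 5.14 and 5.56 in EpiX and at 7.44, 8.32 and 12.34 in BEGM. The platelet-derived growth factor receptor Pdgfra was at 5.10, 5.11 and 5.48 in EpiX and at 4.90, 5.88 and 9.07 in BEGM. Pi16 and Mfap5 of the same list had differences of only 0.047 ± 0.14 and -0.20 ± 0.23 (SE). On BEGM array 1, 6 of the 11 markers were above every EpiX array, Col1a1 among them and Pdgfra not. Dusp6, Phlda1 and, by a small margin, Spry4 were also above every EpiX array there, and Etv5 was not. Of 6 smooth muscle markers 2 fell in EpiX, Acta2 and Cnn1 (3.15% of all genes were called lower), while Myh11 and Des stayed below 5 on every array. The part of other cell types in the differences of the feedback genes was not tested. In bulk RNA of this kind, fewer cells of a type and less RNA per cell cannot be told apart.

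**Figure D3:**
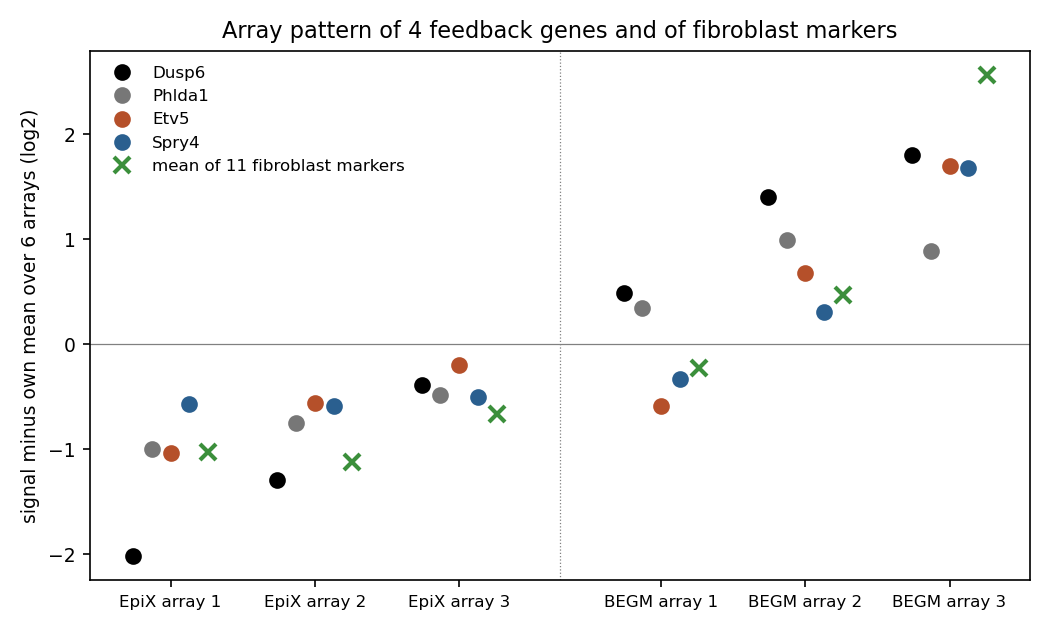
Signal of Dusp6, Phlda1, Etv5 and Spry4 on each array (log2), each minus its own mean over the 6 arrays, with the mean of 11 fibroblast markers treated in the same way (crosses). On BEGM array 1 Dusp6 and Phlda1 lie above all EpiX arrays, whereas Etv5 and Spry4 lie close to them. All 4 genes and the mean of the fibroblast markers are high on BEGM array 3, while Phlda1 is highest on BEGM array 2.

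The rest of the pathway was described through 4 lists with 63 measured genes. Of these, 3 rose and 4 fell in EpiX and 56 did not pass, while 5.78% of all genes were called. With the array number as a block, 4 rose and 7 fell, and 1252 of all 15037 genes were called. In the cascade itself, from adaptors to the ERK-activated kinases, 1 of 15 measured genes fell, 0 rose and 14 did not pass, with a median difference of 0.019, against 0.0022 over all genes. The gene that fell was Shc1, an adaptor that links receptors to Ras, at 12.00, 12.01 and 11.92 in EpiX and 12.71, 12.82 and 13.14 in BEGM (-0.91 ± 0.16, SE; adjusted p = 0.0231 by limma). Another 7 genes of this list were not analysed here.

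Among 15 other measured feedback regulators and dual-specificity phosphatases, 1 rose, 1 fell and 13 did not pass. The median was 0.16, and 5.78% of all genes were called. Pea15, which holds ERK in the cytoplasm, fell by 1.50 ± 0.27 (SE; adjusted p = 0.026 by limma) and was at 12.49, 12.78 and 12.84 in EpiX and 13.72, 14.17 and 14.74 in BEGM. Dusp16, a phosphatase that prefers the stress kinase JNK, rose by 0.70 ± 0.15 (SE; adjusted p = 0.0455 by limma), a call that was lost with the array number as a block (0.0656), with a variance model that had a trend and was robust (0.0826) and when any single array was left out. Dusp16 was at 9.41, 9.29 and 9.27 in EpiX and at 8.49, 8.84 and 8.54 in BEGM. Dusp7, named after its values were seen, was higher in EpiX by 1.09 ± 0.26 (SE; adjusted p = 0.061 by limma) and did not pass. It was at 15.00, 15.38 and 15.95 in EpiX and at 14.19, 14.27 and 14.62 in BEGM. In this list every EpiX array lay above every BEGM array for 3 of 15 genes and below for 3 (13.5% and 14.5% of all genes). Of 14 other transcripts known to follow ERK activity, 0 were called by limma, 4 of 14 had an unadjusted p under 0.05 (22.5% of all genes did), and the median was -0.14. The largest differences were those of Etv4, an ETS factor of the same subfamily as Etv5 (-1.43 ± 0.39, SE; adjusted p = 0.0863 by limma), and the urokinase receptor Plaur (-1.29 ± 0.37; adjusted p = 0.0984). Etv4 was called with the array number as a block (adjusted p = 0.00936) and without BEGM array 1 (0.0334). It was at 6.40, 6.80 and 7.60 in EpiX and at 7.85, 8.24 and 9.02 in BEGM, so its media did not overlap.

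Upstream, 2 of 19 receptors and ligands rose, 2 fell and 15 did not pass (5.78% of all genes called), with a median of -0.18. Under the block 3 rose and 4 fell. The fibroblast growth factor Fgf1 fell by 4.08 ± 0.53 (SE; adjusted p = 0.0102 by limma), with 5.42, 5.84 and 5.52 in EpiX and 8.34, 10.42 and 10.25 in BEGM. Its EpiX signals were near the median of the negative controls. The EGF receptor ligand Hbegf fell by 1.15 ± 0.24 (SE; adjusted p = 0.0408 by limma, and 0.0573 after median centring). The receptors Fgfr3 (2.49 ± 0.43, SE; adjusted p = 0.0228) and Fgfr2 (1.93 ± 0.40; adjusted p = 0.0424) rose by limma. Fgfr1, Fgf2 and Fgf7, named after their values were seen, had differences of -3.64, -3.85 and -3.75 that did not pass. Their adjusted p was 0.0956, 0.0729 and 0.131 by limma. BEGM array 1 was the lowest BEGM array for each, as for 37% of all genes. EpiX signals were 5.24, 6.13 and 5.67 for Fgf2 and 5.24, 5.11 and 5.56 for Fgf7. The negative control medians on those arrays were 5.24, 5.30 and 5.56. Of the 6 fits that each left out a single array, the call was lost in 5 for Fgfr3 and Hbegf, in 4 for Fgfr2, Shc1 and Pea15, and in 3 for Fgf1.

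**Figure D4:**
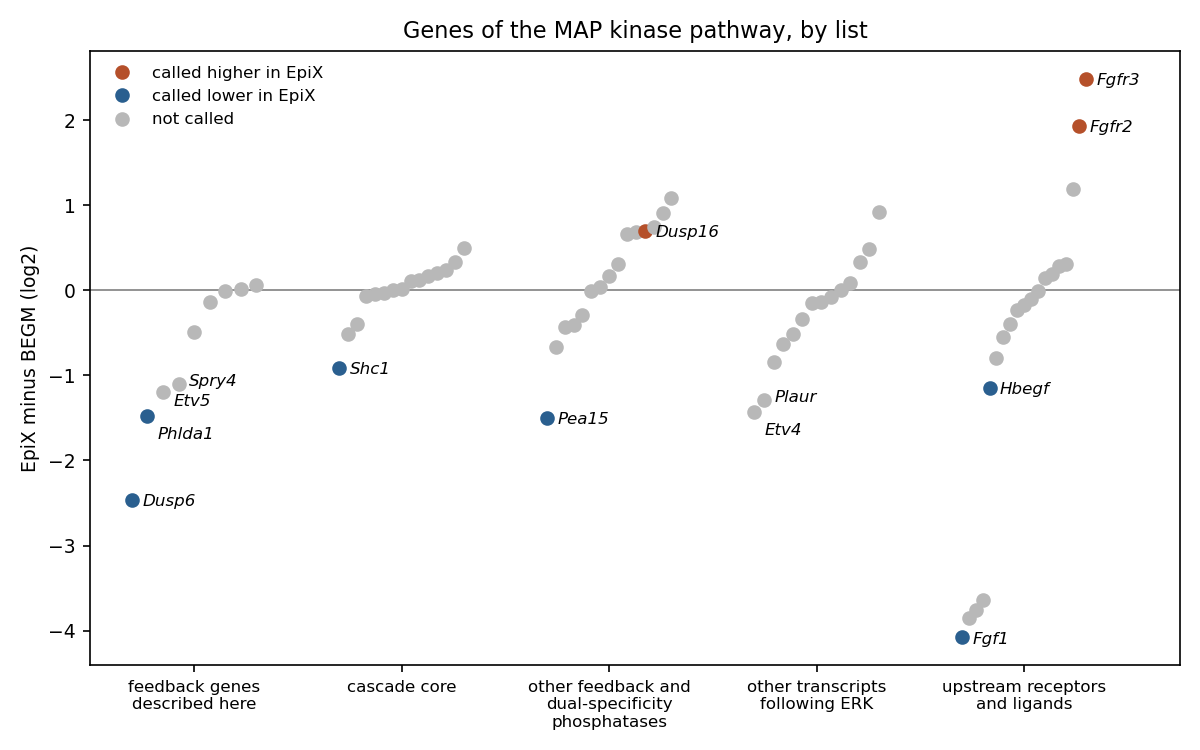
Difference between the media (EpiX minus BEGM, log2) for the 9 feedback genes and for 4 lists of the pathway, 1 point per gene in order of size. Genes called lower in EpiX are blue, those called higher are orange and the rest grey; the named points include Dusp6 (-2.46), Fgf1 (-4.08) and Fgfr3 (2.49), and 0 of the 14 other transcripts known to follow ERK are called by limma, with 4 at an unadjusted p under 0.05.

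The genes whose pattern over the 6 arrays was closest to that of a called feedback gene were found by the root mean square difference of log2 signals, each centred on its own mean. For Dusp6 these were the glycosyltransferase Mgat5 (0.19 units), the matrix protein Fn1 (0.19) and the microtubule-binding protein Mapre2 (0.23). Fn1 was at 14.61, 15.59 and 16.54 in EpiX and at 17.45, 18.14 and 18.21 in BEGM, with the lowest value of each medium on array 1 as for Dusp6. For Phlda1 the closest were the membrane metalloproteinase Mmp14 (0.075), the endocytic protein Ehd4 (0.10) and the hyaluronan synthase Has2 (0.13). Mmp14 was at 11.11, 11.21 and 11.45 in EpiX and at 12.44, 12.94 and 12.83 in BEGM. The likeness was measured over 6 arrays among 14849 named genes.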

How the data were processed

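Biotin-labelled RNA of 6 cultures was put on Affymetrix arrays, per the labels' protocols. The Transcriptome Analysis Console appears in the submitters' processing notes with no role or version. The deposited log2 values give 1 signal for each of 24834 probe sets per array, from 2.62 to 18.66. How the authors scaled, normalized or centred them is not given in the sources used here, base 2 was assumed from the range of the values and every fold depends on it, and the number of arrays limits precision. Of the probe sets, 15049 had 1 gene symbol in the platform annotation, 0 several and 9785 none, and the brightest was kept for 10 genes with several. All 15037 symbols matched a RefSeq gene table.

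Limma 3.58.1 (lmFit, eBayes; statmod 1.5.0, R 4.3.3) was fitted to all genes with the medium as its term, without a filter on low values, and checked on simulated data. Differences are EpiX minus BEGM, and p-values are 2-sided and BH-adjusted over all genes. Ratios used exact permutation tests (scipy 1.17.1), and figures matplotlib 3.10.9. The feedback genes and all lists were chosen with earlier results of these data known.

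All feedback genes are named. From each pathway list the called genes are named, at most the 4 with the largest differences, or 2 where none was called, and for each called feedback gene the 3 genes of most similar pattern. Further genes were named after their values were seen.

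Array numbers were taken as cell lines: the labels split each line between the media, but do not tie numbers to lines. The titles number the arrays otherwise but pair the same arrays. Titles of the arrays numbered 3 here are styled differently and carry no replicate number. After subtraction of the group mean, same-numbered arrays correlated over genes at 0.32, -0.014 and 0.32 for the numbers 1, 2 and 3. The number as a block, other scalings, filters, variance models, array weights, probe set averages and left-out arrays were tried.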

Additional observations from a re-analysis of the deposited data

How the results depend on the processing

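The calls of Dusp6 and Phlda1 held under all 7 settings that kept all arrays: the replicate block, quantile normalization, median centring, array weights, no genes of the dimmest 25%, a robust variance with trend, and averaged probe sets. Their differences there were -2.63 to -2.34 and -1.57 to -1.35. With the array number as a block, 2 feedback genes were called (adjusted p = 0.00307 for Dusp6 and 0.0111 for Phlda1 by limma). So were 11 of the 63 pathway genes against 7 without it, and 1252 of all genes against 869. The block changed no call of a feedback gene. Among the named pathway genes it ended the call of Dusp16 and made one for Etv4, and pathway genes not named here also gained a call. Array weights gave 13 pathway genes and 1987 genes in all. Leaving out arrays, singly or both of one number, mattered more, and leaves fewer samples for the test. The feedback genes called by limma ranged from 0 to 4: 4 without BEGM array 1 (Dusp6, Phlda1, Spry4 and Etv5), 2 without EpiX array 3 or both of number 1, 1 without BEGM array 3, and 0 without EpiX array 1, EpiX array 2, BEGM array 2, both of number 2 or both of number 3, where 2 still had an unadjusted p under 0.05. Pathway genes called ranged from 0 to 13: 13 without BEGM array 1, 9 without number 1, 4 without BEGM array 3, 1 without EpiX array 3, and 0 in the other 5 settings by limma, where 11 to 19 had an unadjusted p under 0.05. All genes called by limma ranged from 0 (both of number 2 left out, with 1582 at an unadjusted p under 0.05) to 2089 (BEGM array 1 left out). They numbered 170, 101 and 418 when EpiX array 1, 2 or 3 was left out, 192 and 544 for BEGM array 2 or 3, and 1351 and 264 for number 1 or 3. With single arrays left out the differences ran from -2.89 to -2.07 for Dusp6, -1.68 to -1.35 for Phlda1, -1.78 to -0.64 for Etv5, -1.55 to -0.54 for Spry4, -0.68 to -0.35 for Spred2, -0.32 to 0.091 for Spred1, -0.31 to 0.17 for Spry2, -0.057 to 0.24 for Dusp4 and -0.17 to 0.13 for Dusp5. With both arrays of a number left out they ran from -2.60 to -2.35 for Dusp6, -1.55 to -1.35 for Phlda1, -1.56 to -0.84 for Etv5, -1.54 to -0.57 for Spry4, -0.13 to 0.11 for Spry2, -0.047 to 0.20 for Dusp4 and -0.17 to 0.25 for Dusp5, which was -0.054 without number 3; Phlda1 was at -1.54 without number 3. Spred1, Spry2, Dusp4 and Dusp5 thus changed sign when arrays were left out, and Spry2 also with median centring (0.12). These 4 were not called in any of the settings, and the cause of each change was not tested. Without detection calls, the signals of Dusp4, and of Spry4 in EpiX and on BEGM array 1, cannot be told from background, and Etv5 was dim.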
